A study of Mus musculus with 6 samples.

Results

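The TGF-beta, SMAD and ID genes followed in bone marrow-derived macrophages (BMDMs) were the ligands Tgfb1 and Inhba, the receptors Tgfbr1 and Tgfbr2, the signal transducers Smad3, Smad6 and Smad7, and the transcriptional regulators Id1, Id2 and Id3. They were chosen by name, as the rows of the gene count table whose Ensembl identifier carries one of these symbols in GENCODE M21, and 10 of 10 were found among 55335 identifiers. The macrophages were grown from bone marrow of C57BL/6 mice, young adult males per the study's methods, and cultured for 6 d in medium with L929-conditioned supernatant, a source of the growth factor CSF1. The library names mark both groups as WT, wild type, and no engineered allele is named for either. The control group received PBS for 1 h and the LPS group received LPS, a bacterial cell wall component sensed by TLR4, for 1 h, with 3 libraries of total RNA each. Nothing in the labels says whether libraries of a group came from separate mice or cultures, so the p-values measure the spread between these libraries, which may be technical.

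TGF-beta and activin A, the dimer encoded by Inhba, are secreted ligands that bring together a type I and a type II receptor kinase at the cell surface. The activated type I receptor phosphorylates SMAD2 and SMAD3, which enter the nucleus with SMAD4, whereas the related BMP branch uses SMAD1, SMAD5 and SMAD9. SMAD6 and SMAD7 are the inhibitory SMADs that block receptor signaling, and the ID proteins, classical targets of the BMP branch, hold E proteins in dimers that cannot bind DNA. In macrophages TGF-beta is known for restraining inflammatory activation and for shaping tissue-resident identity.

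The libraries held between 37787611 and 41516330 counts. Levels are given as CPM, counts relative to library size, after TMM scaling, a method of edgeR that corrects for a shift in library composition, and 3 counts, the limit that a count of 0 allows, equalled 0.0630 to 0.0919 CPM depending on the library. That limit covers counting error alone, as the sources name no molecular identifiers. Differences are given as log2 fold changes, LPS over control, with a standard error (SE) and the adjusted p of edgeR's quasi-likelihood test over 15687 tested genes. The SE was computed as the absolute log2 fold change divided by the square root of that test's F statistic. DESeq2 and limma voom, used as alternatives, gave larger SEs for Id3 (0.12 and 0.14, against 0.07) and Smad6 (0.35 and 0.40, against 0.22). The same held for Inhba (0.20 and 0.24, against 0.13), while for Id2 all were 0.04. The SE given here may thus understate the error of the largest changes. A gene was counted as changed at an adjusted p under 0.05 with an absolute log2 fold change above 1, the thresholds of the study. As bulk RNA, the libraries cannot tell a change in the number of cells that express a gene from a change in RNA per cell. Tnf, the cytokine the study is about, had a log2 fold change of 6.83 (SE 0.05), and the TMM factors were 1.15 in the control and between 0.864 and 0.872 in the LPS libraries. When scaled by library size alone, the values of all tested genes shifted by -0.40 at the median. Gapdh, a housekeeping enzyme, had 0.08 (adjusted p = 0.118) with TMM and -0.33 with library size alone.

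Sequence before the RefSeq start is shown for the genes of the set with a very large rise (Smad6 and Inhba). It is also shown for Id2 and Tgfb1, with a moderate and a small response, whose windows held searched motifs. The first Tgfbr1 window also held such motifs and is not printed. The windows were the 250 bases before the RefSeq start (assembly GRCm38.p6), written 5′ to 3′ on the strand of the gene and printed only as far as the first exonic base in GENCODE M21. The Id3 window lies inside the gene there and begins with an exonic base, so none of it is printed. The Id2 window also lies inside the M21 gene, since 1 of its 3 transcripts starts farther upstream, and the bases printed for Id2 are in the first intron of that transcript. Capitals mark matches, on either strand, to the motifs searched, which were the kB consensus bound by NF-kB, the AP-1 site TGANTCA, the cAMP response element TGACGTCA, the CArG box of SRF, the SMAD palindrome GTCTAGAC, the BMP-responsive GC box GGCGCC, the EGR site GCGGGGGCG and the E-box CAGCTG. Promoter sequence was read for 8 of the 10 genes, not for Id1 and Smad7.
Smad6, chr9:64022060-64022309, minus strand: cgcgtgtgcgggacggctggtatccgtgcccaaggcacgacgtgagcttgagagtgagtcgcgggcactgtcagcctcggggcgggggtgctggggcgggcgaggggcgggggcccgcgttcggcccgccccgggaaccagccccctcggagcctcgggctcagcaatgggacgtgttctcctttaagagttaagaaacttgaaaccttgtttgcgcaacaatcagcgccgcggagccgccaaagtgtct
Inhba, chr13:16011601-16011850, plus strand: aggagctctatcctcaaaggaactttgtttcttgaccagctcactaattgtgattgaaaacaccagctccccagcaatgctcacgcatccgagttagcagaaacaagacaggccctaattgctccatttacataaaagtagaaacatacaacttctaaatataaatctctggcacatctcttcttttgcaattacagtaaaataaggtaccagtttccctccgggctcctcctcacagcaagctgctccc
Id2, chr12:25096254-25096342, minus strand: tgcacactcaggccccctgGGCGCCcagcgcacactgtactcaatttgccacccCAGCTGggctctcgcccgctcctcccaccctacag
Tgfb1, chr7:25686752-25687001, plus strand: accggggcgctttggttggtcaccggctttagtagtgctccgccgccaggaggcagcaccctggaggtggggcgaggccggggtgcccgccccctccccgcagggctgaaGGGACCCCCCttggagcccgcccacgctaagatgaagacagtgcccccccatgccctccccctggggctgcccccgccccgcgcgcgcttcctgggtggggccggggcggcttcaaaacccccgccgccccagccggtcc

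None of the searched motifs matched in the windows of Id3, Smad6, Inhba, Smad3 or Tgfbr2. The Id2 window held 1 GGCGCC, 231 bases before the RefSeq start, and 1 CAGCTG, 196 bases before it. GGCGCC occurred in 9.59% and CAGCTG in 13.0% of the 32851 promoter windows of the same length. The window of Tgfb1 held the only match to the kB consensus (GGGACCCCCC, 140 bases before the start), a motif present in 7.25% of all windows. The first of the 2 Tgfbr1 windows held GGCGCC and GCGGGGGCG, the latter in 2.57% of all windows. GC content was 43.2% for Inhba, 62.8% for both Id2 and Id3, 66.8% for Smad6 and 75.2% for Tgfb1, against a median of 52.4% over all windows. These letters cover a short stretch only, and a match or its absence is a description of the window.

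After TMM scaling, all 10 genes were higher with LPS, and the groups of libraries did not overlap for any of them. Groups were likewise apart for 70.5% of all tested genes in either direction and 33.9% with LPS higher. With library size alone, Tgfbr2 was not higher (-0.053) and 6 of the 10 genes passed both thresholds. Of the 10, 7 passed both thresholds upward, against 10.5% of all tested genes, and 0 passed them downward, against 10.4% (20.9% in either direction). The count of falls was also 0 at an unadjusted p under 0.05 and with DESeq2 and limma voom. The median log2 fold change of the 10 genes was 2.67, beside -0.01 over all tested genes. By adjusted p alone, 10 of 10 were higher, against 32.9% of all tested genes (67.7% in either direction and 34.9% lower). Id3, Smad6 and Inhba rose by more than 5 on the log2 scale, a size that 1.24% of tested genes reached. Id1, Id2 and Smad7 had log2 fold changes between 2.56 and 3.53, and Smad3, Tgfbr1, Tgfb1 and Tgfbr2 had values of 1.02 or less.

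**Figure D1:**
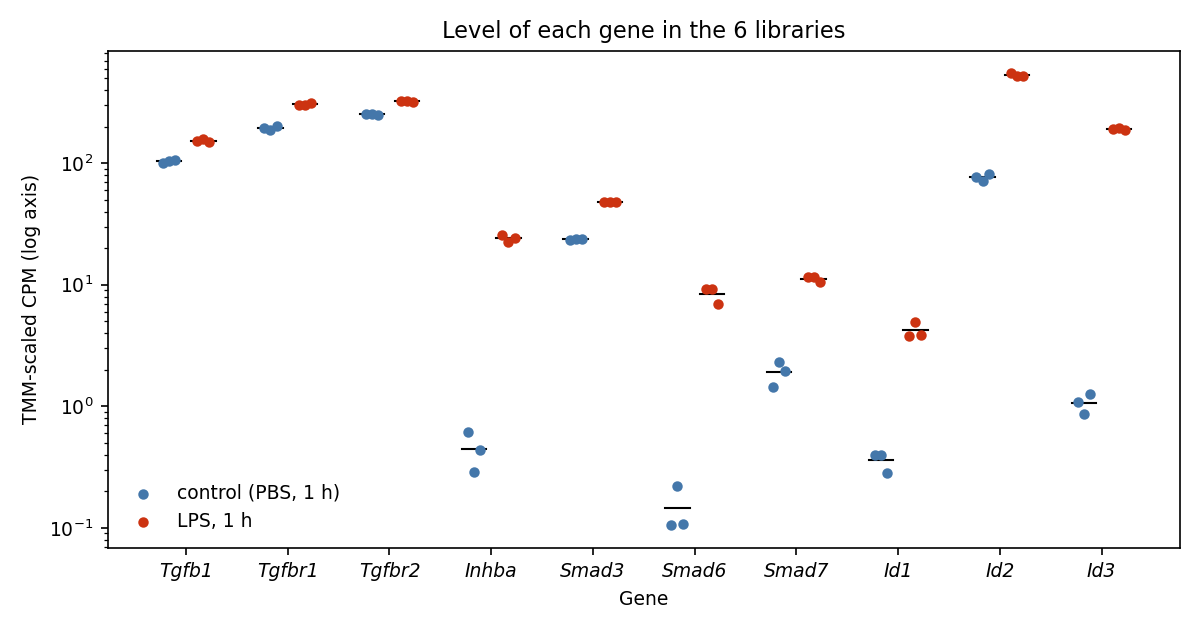
TMM-scaled CPM (log axis) of the 10 genes in each of the 3 control and 3 LPS libraries, with a point for each library and a line at the group mean. The 3 LPS libraries lie above the 3 control libraries for every gene, by a margin that is narrow for Tgfbr2 (318 to 326 against 248 to 256 CPM) and wide for Id3 (189 to 194 against 0.863 to 1.26 CPM).

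Among the ligands, Inhba was nearly silent in control macrophages and Tgfb1 was not. Inhba (ENSMUSG00000041324.14, chromosome 13, 16011851 to 16031621, plus strand) encodes the beta A subunit whose homodimer is activin A. It had 29, 13 and 20 counts in control replicates 1, 2 and 3, and 859, 733 and 821 counts in the LPS replicates. Every LPS library was thus far above the highest control library, and control replicate 2 was the lowest of its group. Inhba had a mean of 0.443 ± 0.161 under PBS and 24.1 ± 1.57 CPM under LPS (SD, n = 3 each), a 53.6-fold rise with a log2 fold change of 5.74 (SE 0.13, adjusted p = 3.76e-17 by edgeR). Leaving out control replicate 1 or 2 gave 6.04 and 5.52, respectively, the widest values over the 6 libraries. Inhba overlaps 2 genes on the opposite strand, neither of which shares exonic bases with it, and these had at most 2 counts in any library.

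Tgfb1 (ENSMUSG00000002603.15, chromosome 7, 25687002 to 25705077, plus strand), the main TGF-beta of immune cells, was already abundant. It had 99.9, 104.7 and 105.7 CPM in control and 152, 159 and 148 CPM in LPS libraries. The groups were apart, but the difference was small beside that of Inhba, with a log2 fold change of 0.56 (SE 0.04, adjusted p = 1.72e-10 by edgeR). Library size alone gave 0.16. Within each library, the log2 ratio of Inhba to Tgfb1 counts averaged -7.89 ± 0.56 in control and -2.67 ± 0.13 in LPS libraries (SD, n = 3 each), a difference of 5.23 that does not depend on scaling. An exact two-sided permutation test gave p = 0.1, the smallest that 3 libraries against 3 can give (adjusted p = 0.1 over the 6 pairs of genes compared in this way). With libraries paired by the batch of their labels, an exact sign-flip test gave p = 0.25 for each of the 6 ratios. That is the smallest p that 3 batches can give.

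Both receptors were among the more abundant of the 10 genes, and their differences, like that of Tgfb1, were under the threshold of 1. Tgfbr1 (ENSMUSG00000007613.15, chromosome 4, 47353222 to 47414931, plus strand), the type I receptor kinase, had 196, 189 and 202 CPM in control and 301, 301 and 315 CPM in LPS libraries. Tgfbr2 (ENSMUSG00000032440.13, chromosome 9, 116084293 to 116175360, minus strand), the type II receptor that binds the ligand first, had 256, 255 and 248 CPM in control and 324, 326 and 318 CPM in LPS libraries. The groups did not overlap for either gene. The log2 fold change was 0.64 for Tgfbr1 (SE 0.03, adjusted p = 1.40e-11 by edgeR) and 0.35 for Tgfbr2 (SE 0.03, adjusted p = 1.63e-08). The direction for Tgfbr2 rested on the scaling, since library size alone gave -0.053 (adjusted p = 0.122). Free of any scaling, the log2 ratio of Tgfbr1 to Tgfbr2 counts was -0.37 ± 0.07 in control and -0.08 ± 0.06 in LPS libraries (SD, n = 3 each). This shift of 0.29 toward Tgfbr1 had p = 0.1 in the exact permutation test.

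The inhibitory SMADs rose by far more than the receptor-regulated Smad3. Smad6 (ENSMUSG00000036867.7, chromosome 9, 63953076 to 64022059, minus strand), the inhibitory SMAD best known for the BMP branch, had 5, 10 and 5 counts under PBS, against 309, 302 and 235 under LPS. Its control libraries were just above the floor of 3 counts, which makes the size of its change less certain than the direction. The log2 fold change was 5.84 (SE 0.22, adjusted p = 5.72e-14 by edgeR), or 57.4-fold, and ranged from 5.65 to 6.27 over the fits that omitted 1 library each. LPS replicate 3 had the lowest level of its group, 6.91 CPM against 9.21 and 9.25 CPM.

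Smad7 (ENSMUSG00000025880.11, chromosome 18, plus strand), which blocks both TGF-beta and BMP receptors, was measurable before treatment. It had 1.45, 2.30 and 1.95 CPM in control and 11.5, 11.6 and 10.5 CPM in LPS libraries, so the lowest LPS library was above the highest control library. The log2 fold change was 2.56 (SE 0.12, adjusted p = 2.09e-12 by edgeR), or 5.91-fold. The log2 ratio of Smad6 to Smad7 counts within a library moved from -3.67 ± 0.36 to -0.42 ± 0.16 (SD, n = 3 each), a gain of Smad6 on Smad7 of 3.25 (exact permutation p = 0.1).

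Smad3 (ENSMUSG00000032402.12, chromosome 9, 63646767 to 63757994, minus strand), which carries the TGF-beta and activin signal into the nucleus, varied little among replicates. It had 23.5, 23.7 and 23.8 CPM in control and 48.1, 48.2 and 47.7 CPM in LPS libraries, a log2 fold change of 1.02 (SE 0.04, adjusted p = 2.45e-13 by edgeR). This value sits at the threshold of 1, and upper quartile scaling (0.88), library size alone (0.62) or no filter on low counts (0.995) each ended the call. Smad3 and Smad6 are neighbors on the same strand with 195 kb between them, and the tested genes flanking them did not pass the thresholds. Aagab, 2.18 kb from Smad3, had a log2 fold change of -0.60, and Gm18541, a pseudogene that lies between the SMAD genes, had 0.12 (adjusted p = 0.547).

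The 3 ID genes all rose, and Id3 stood out. Id3 (ENSMUSG00000007872.3, chromosome 4, 136143497 to 136145755, plus strand) had 52, 39 and 58 counts under PBS, against 6391, 6328 and 6426 under LPS. The LPS replicates were within a narrow range, and each exceeded the highest control library by far. Its level had a mean of 1.07 ± 0.198 under PBS and 191 ± 2.59 CPM under LPS (SD, n = 3 each), a 178-fold rise with a log2 fold change of 7.47 (SE 0.07, adjusted p = 2.83e-23 by edgeR). The nearest tested genes had log2 fold changes of 0.17 (Rpl11) and -0.89 (E2f2). Among the nearest tested genes on either side of the 10, those past both thresholds were Col15a1, 40.1 kb from Tgfbr1, with 2.52 (SE 0.14), and Gm36723, 207 kb from Id2, with 2.42 (SE 0.50).

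Id2 (ENSMUSG00000020644.9, chromosome 12, 25093799 to 25097140, minus strand), the ID gene with the highest level in both groups, had 76.6, 71.8 and 81.9 CPM in control and 549, 518 and 522 CPM in LPS libraries. Id2 had a log2 fold change of 2.79 (SE 0.04, adjusted p = 1.38e-19 by edgeR), or 6.90-fold. Id1 (ENSMUSG00000042745.9, chromosome 2, 152736251 to 152737410, plus strand), the prototype target of BMP signaling, was scarce throughout. It had 19, 18 and 13 counts under PBS, against 128, 162 and 131 under LPS, and LPS replicate 2 was the highest. The log2 fold change of Id1 was 3.53 (SE 0.19, adjusted p = 1.48e-11 by edgeR), or 11.6-fold.

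Counts within a library showed how unequal the ID response was. The log2 ratio of Id2 to Id3 counts fell from 6.16 ± 0.18 in control to 1.47 ± 0.05 in LPS libraries (SD, n = 3 each), and that of Id1 to Id3 went from -1.55 ± 0.52 to -5.51 ± 0.20. The ratio of Id1 to Id2 moved by 0.73, from -7.71 ± 0.37 to -6.98 ± 0.25. Each of these shifts had p = 0.1 in the exact permutation test, the smallest possible. Per exonic base, Id3 held 1.84% ± 0.224 of the summed ID signal in control and 32.6% ± 0.778 in LPS libraries (SD, n = 3 each), while the share of Id2 went from 97.2% ± 0.126 to 66.3% ± 0.943 and that of Id1 was 0.967% ± 0.231 and 1.11% ± 0.182. The longest exact run shared by any transcripts of Id1, Id2, Id3 and Id4 was 19 bases, and that of Smad6 and Smad7 12 bases, well under the length of a read.

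**Figure D2:**
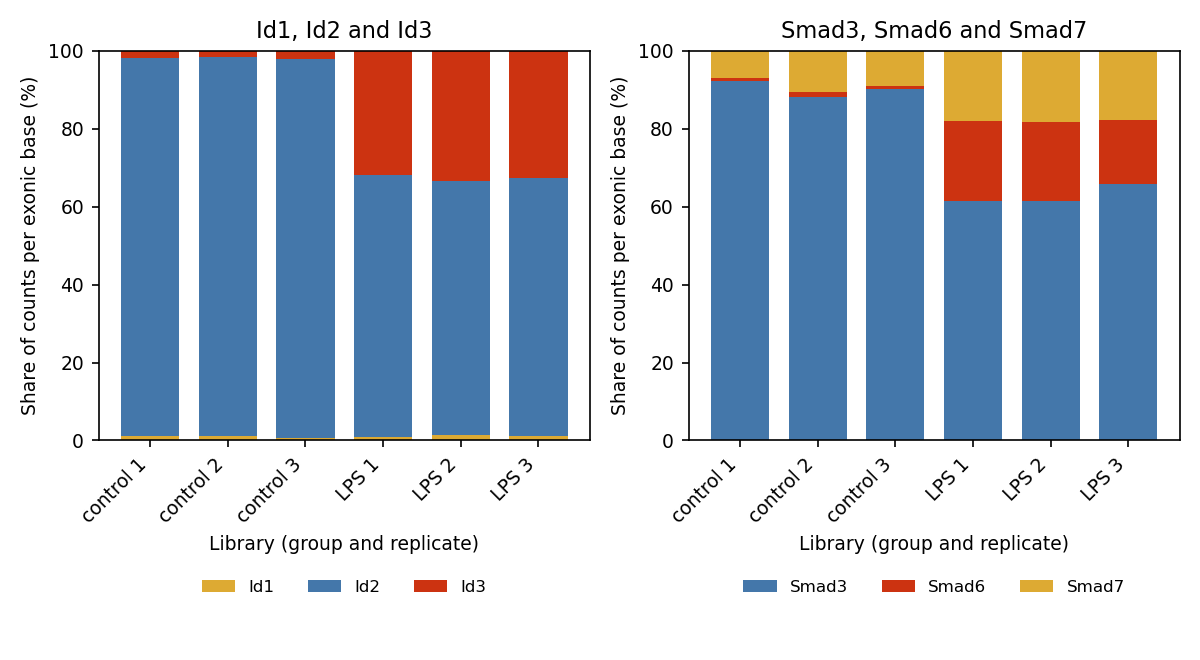
Share of counts per exonic base (%) held by each of Id1, Id2 and Id3 (left) and Smad3, Smad6 and Smad7 (right) in the 6 libraries; the 3 shares of a library add up to 100%. Id3 and the inhibitory Smad6 take up a visible part of the bars in the LPS libraries only, between 31.8% and 33.3% for Id3 and between 16.5% and 20.4% for Smad6.

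The same calculation over SMADs put the inhibitory members in proportion. Among Smad3, Smad6 and Smad7, the share of Smad3 per exonic base was 90.2% ± 2.11 in control and 62.9% ± 2.49 in LPS libraries, that of Smad6 0.949% ± 0.411 and 19.1% ± 2.26, and that of Smad7 8.85% ± 1.77 and 18.0% ± 0.235 (SD, n = 3 each). With Smad1, Smad2, Smad4 and Smad5 added, Smad6 and Smad7 together made up 1.40% ± 0.332 of the signal of 7 SMADs in control and 12.3% ± 1.25 in LPS libraries. The receptor-regulated and common SMADs held the rest.

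Levels per kilobase of exon ranked Id2 first in both groups, at 31.5 ± 2.07 CPM per kb in control and 217 ± 6.89 in LPS libraries (SD, n = 3 each). In control libraries Tgfbr2 (30.9), Tgfbr1 (30.0) and Tgfb1 (20.5) followed, and the ranges of Id2, Tgfbr2 and Tgfbr1 overlapped. Smad3 came next at 4.27, then Id3 (0.598), Smad7 (0.420), Id1 (0.310), Inhba (0.0694) and Smad6 (0.0452). Id3 and Smad7, Smad7 and Id1, and Inhba and Smad6 overlapped in the control group. In LPS libraries Id3 was second at 107 CPM per kb, ahead of Tgfbr1 (46.8), Tgfbr2 (39.4), Tgfb1 (30.3) and Smad3 (8.66), with no overlap between neighbors down to Inhba. Inhba (3.77) and Id1 (3.63) could not be told apart in the LPS group, nor could Smad6 (2.64) and Smad7 (2.48).

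**Figure D3:**
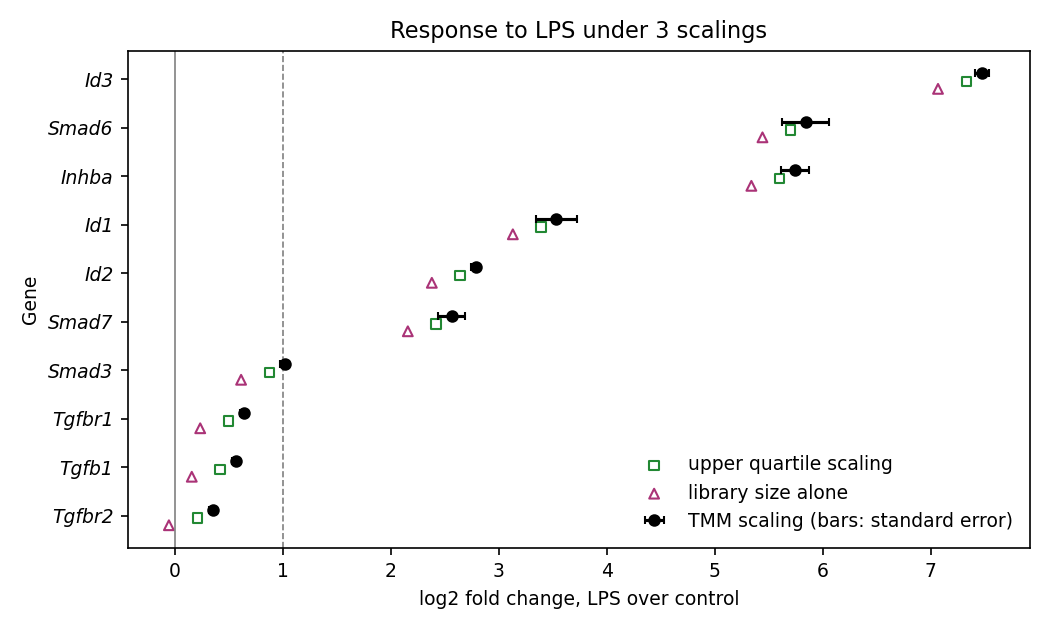
Log2 fold change, LPS over control, of the 10 genes under TMM scaling (filled circles), upper quartile scaling (open squares) and library size alone (open triangles). Bars show the standard error computed from the F statistic, which may be too small for the largest changes. The dashed line marks the threshold of 1. The order of the genes is the same under each scaling, while Smad3 crosses the threshold of 1 (1.02, 0.88 and 0.62) and Tgfbr2 crosses 0 (0.35, 0.21 and -0.053).

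Sequence features of the mRNAs differed within the set. In the transcript with the longest coding sequence, the 3′ untranslated region of Inhba held 21 copies of ATTTA, the core of AU-rich elements that shorten mRNA lifetime, or 4.67 per kb. The 3 ID transcripts held 0, as did 34.0% of 11924 tested coding genes, where the median was 1.21 per kb. For Id1 and Id2 the transcript read was a model of 1 exon, and their other transcripts were not examined. Per kb, Tgfb1 had 7.41 (1 copy in 135 bases), Smad6 4.46 (2 copies in 448 bases), Smad7 2.55, Tgfbr1 1.204, Smad3 1.14 and Tgfbr2 0.986, so Inhba had the most copies but not the highest rate. The genes that rose also differed in length, from 1160 bp for Id1 and 2259 bp for Id3 to 69.0 kb for Smad6 and 111.2 kb for Smad3, beside a median of 23.7 kb over tested coding genes.

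Genes around these 10 were followed as 7 lists of 69 genes, of which 56 were tested. Past both thresholds, 20 rose and 1 fell by edgeR, against 10.5% and 10.4% of all tested genes. Of the 38 that were higher by adjusted p alone, 10 turned negative without TMM scaling. Over the 56, the median was 0.49 on the log2 scale, beside -0.01 over all tested genes. Those that rose were ligands, signal regulators, extracellular proteins and target genes, while no other receptor, other SMAD or E protein passed the thresholds.

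**Figure D4:**
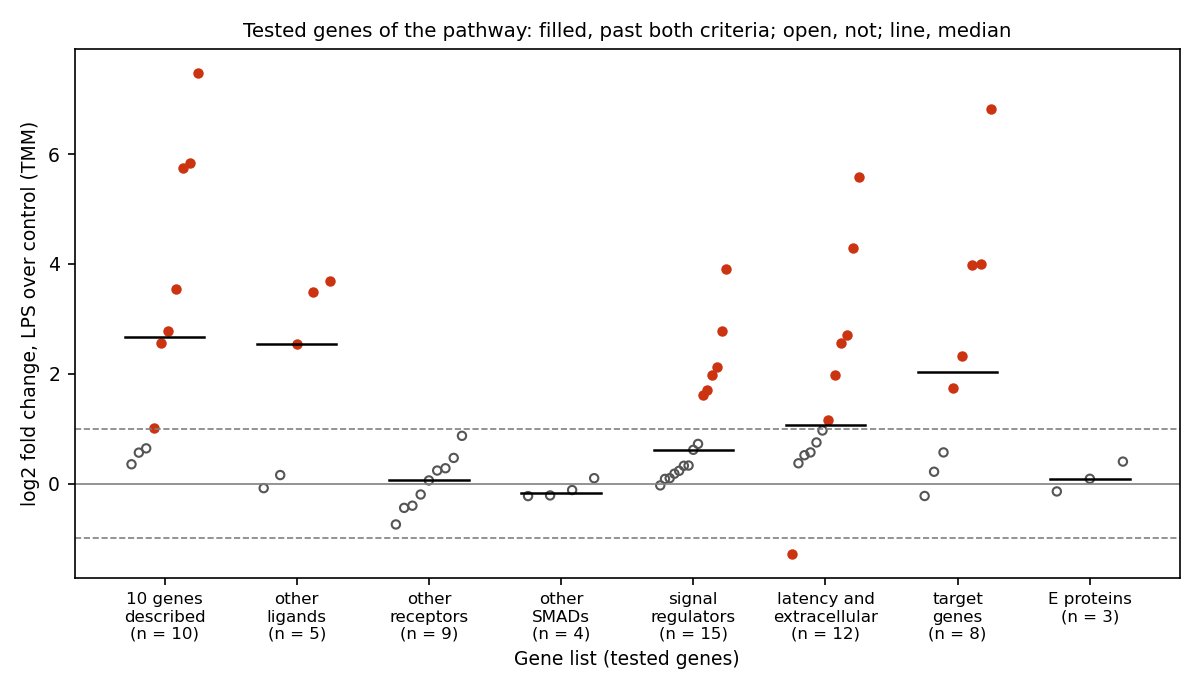
Log2 fold change, LPS over control, of the tested genes in the set of 10 and in 7 lists around it; filled points passed both thresholds, open points did not, dashed lines mark 1 and -1 and the black line is the median of a list. The medians of the other receptors (0.06), other SMADs (-0.17) and E proteins (0.09) lie near 0, while those of the 10 genes (2.67), other ligands (2.54) and target genes (2.04) are above 2.

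Of 12 other ligands of the family, 5 were tested and 3 rose past both thresholds, as did 10.5% of all tested genes. Tgfb3, a TGF-beta isoform, had a mean of 0.403 ± 0.0156 under PBS and 5.22 ± 0.153 CPM under LPS (SD, n = 3 each), or a log2 difference of 3.68 (SE 0.15). Bmp2, a ligand of the BMP branch, went from 10.3 ± 0.322 to 59.9 ± 2.51 CPM (2.54, SE 0.05), and Gdf15, a stress-induced cytokine, from 14.7 ± 0.740 to 165 ± 9.71 CPM (3.49, SE 0.05). The adjusted p was at most 2.51e-13 for these 3 by edgeR. Gdf3 had a log2 fold change of -0.08 (adjusted p = 0.436) and Inhbb of 0.16 (adjusted p = 0.666). Inha, Bmp6 and Mstn had 0 counts in every library, Bmp4 and Bmp7 at most 2, Tgfb2 at most 5 and Gdf11 at most 8.

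Of 10 other receptors, 9 were tested and 0 passed both thresholds by edgeR, DESeq2 or limma voom. By edgeR, 20.9% of all tested genes passed them in either direction. By edgeR, 3 had an adjusted p under 0.05 with LPS higher and 4 with LPS lower, the same counts as at an unadjusted p under 0.05. Over all tested genes those shares were 32.9% and 34.9%, so the receptors' counts were near the background. Acvr1b, the activin type I receptor, had the lowest value, -0.74 (SE 0.05, adjusted p = 2.76e-10), which was -1.15 with library size alone and then passed both thresholds. Acvr2a, an activin type II receptor, had the highest at 0.87 (SE 0.06), and Tgfbr3, the co-receptor betaglycan, had 0.24 (adjusted p = 0.259).

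The other SMADs had values between -0.23 and 0.10 on the log2 scale. Smad2 had -0.22 (SE 0.04, adjusted p = 1.76e-04 by edgeR), Smad5 -0.23 (adjusted p = 4.09e-04), Smad1 -0.12 (adjusted p = 0.0990) and Smad4 0.10 (adjusted p = 0.0336). The value of Smad4 was -0.31 with library size alone. None passed both thresholds by edgeR, DESeq2 or limma voom. By edgeR, an adjusted p under 0.05 was found for 3 of the 4 (1 higher and 2 lower), the same as at an unadjusted p under 0.05. By adjusted p 67.7% of all tested genes passed that level, so this count is no result about the SMADs. Among the E proteins that ID proteins bind, Tcf3 had -0.14 (adjusted p = 0.0228), Tcf4 0.40 (adjusted p = 9.54e-09) and Tcf12 0.09 (adjusted p = 0.0529). Of these, 0 passed both thresholds with edgeR, DESeq2 or limma voom. By adjusted p under 0.05, 1 was higher and 1 lower, which is likewise to be read against 67.7% of all tested genes. At an unadjusted p under 0.05 by edgeR, 2 were higher and 1 lower. Library size alone gave -0.55, -0.0044 and -0.32 in the same order. Id4 had at most 3 counts in any library.

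Of 15 signal regulators, 6 rose and 0 fell by edgeR, DESeq2 or limma voom, and 0 were lower at an unadjusted p under 0.05 by edgeR. Over all tested genes, 10.5% rose and 10.4% fell past both thresholds by edgeR. Skil, which encodes the SMAD corepressor SnoN, went from 97.4 ± 3.96 to 1456 ± 38.5 CPM (SD, n = 3 each), or a log2 difference of 3.90 (SE 0.04, adjusted p = 3.76e-22 by edgeR). Its relative Ski had 0.18 (SE 0.04), which was -0.22 with library size alone. Tgif1, another SMAD corepressor, had 2.12 (SE 0.04), Bambi, a pseudoreceptor that blocks type I receptors, had 1.71 (SE 0.12), and Zeb1, a zinc finger repressor that binds SMADs, had 1.62 (SE 0.08). Tgif2 and Pmepa1, at a mean of 28.0 and 14.2 counts per library, were the others, named after their values were seen. The ubiquitin ligases Smurf1 (0.09, adjusted p = 0.150) and Smurf2 (0.10, adjusted p = 0.0481) had small values, both of which turned negative with library size alone (-0.32 and -0.31).

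TGF-beta is secreted in a latent complex, and 12 of 13 genes for its storage, release and extracellular control were tested. Of these, 6 rose and 1 fell past both thresholds, against 10.5% and 10.4% of all tested genes. Thbs1, encoding thrombospondin 1, an activator of latent TGF-beta, went from 88.8 ± 1.59 to 4250 ± 38.1 CPM (SD, n = 3 each), or a log2 difference of 5.58 (SE 0.04, adjusted p = 1.82e-24 by edgeR). The integrin subunits Itgav and Itgb8, which together release active TGF-beta, had 1.97 (SE 0.03) and 2.57 (SE 0.16), although Itgb8 reached only 4.11 CPM. Lrrc32, which tethers latent TGF-beta at the surface of regulatory T cells, had 2.70 (SE 0.10) from 2.08 CPM. Nrros, the tether of macrophages and microglia, was far more abundant at 350.0 ± 6.14 CPM in control and had 0.97 (SE 0.03), just under the threshold. Furin, the protease that cleaves the TGF-beta precursor, had 1.16 (SE 0.05), which was 0.75 with library size alone. Fst, encoding the activin antagonist follistatin and singled out after its values were seen, had 1, 4 and 1 counts under PBS, against 27, 33 and 31 under LPS. The 1 that fell was Fstl3, a related antagonist named after its values were seen, with 22, 27 and 32 counts under PBS, against 11, 7 and 6 under LPS (-1.27, SE 0.34).

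Of 10 genes known as targets of TGF-beta or BMP, 8 were tested. Past both thresholds by edgeR, 5 rose and 0 fell, against 10.5% and 10.4% of all tested genes. Junb, a subunit of AP-1, went from 160 to 2561 CPM, and the log2 fold change was 3.99 (SE 0.06) for Cdkn1a, 2.33 (SE 0.04) for Bhlhe40 and 1.75 (SE 0.14) for Ccn2. Several of these, Junb and Cdkn1a among them, respond to many other signals. Tgfbi had 0.22 (SE 0.03), which was -0.19 with library size alone, and Klf10, also called TGF-beta-inducible early gene 1, had -0.23 (SE 0.04). For the 0 that fell, the count was also 0 with DESeq2 and limma voom, and 1 gene, Klf10, was lower at an unadjusted p under 0.05.

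The cells carried the markers of macrophages. The summed level of 8 macrophage markers was between 29946 and 31229 CPM in control and between 35886 and 36245 CPM in LPS libraries, and Cd14 was the 1 of them that rose past both thresholds. Most of that sum was Lyz2, with a mean of 23272 CPM in control and 24224 CPM in LPS libraries. Stromal markers, which matter here because fibroblasts also express ligands of this family, summed to between 14.9 and 16.1 CPM in control and between 18.2 and 21.2 CPM in LPS libraries, with 1 of 6 tested (Pdgfrb) past both thresholds. Neutrophil markers summed to between 40.8 and 43.6 and between 52.7 and 56.8 CPM with Ly6g at no more than 3 counts, B and T cell markers to between 21.2 and 22.7 and between 31.4 and 31.9 CPM, most of it Cd4, mast cell markers to between 5.08 and 6.35 and between 9.25 and 9.64 CPM with Mcpt4 at 0, and megakaryocyte markers to between 5.66 and 6.36 and between 5.64 and 7.003 CPM. In these 4 lists the value farthest from 0 was a log2 fold change of 0.90 for Cpa3, a mast cell protease. Their part in the rises above was not tested.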

How the data were processed

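RNA of BMDMs, in 3 control and 3 LPS libraries, was sequenced by the authors with a stranded total RNA kit as paired 101-base reads. The deposited values are raw counts per Ensembl gene. The submitters' processing notes name FastQC 0.11.9, HISAT2 2.1.0, SAMtools 1.17 and featureCounts 2.0.0 with build GRCm38. The annotation release, strand setting and treatment of multiply mapped reads are not given in the sources used here, and neither is the LPS dose of these cultures.

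Symbols and positions were taken from GENCODE M21, which matched 55154 of 55335 identifiers. Counts were filtered with filterByExpr, scaled by TMM and tested with edgeR 4.0.16 (quasi-likelihood, R 4.3.3), LPS against control without a block, with Benjamini-Hochberg adjustment over 15687 genes. Libraries held 37787611 to 41516330 counts, the biological coefficient of variation was 0.0426, and replicates differed beyond sampling noise. The labels give each replicate number a batch shared by both groups, and the numbers were taken as pairing the libraries. What a batch stands for is not stated. Deviations from the group means correlated at -0.0117, 0.0659 and 0.0372 within numbers and from -0.0653 to 0.0292 between them. Ratios between genes were taken within a library as log2 of counts with 0.5 added. Alternatives were other pseudocounts, other scalings and filters, DESeq2 1.42.0, limma 3.58.1 voom, a replicate block, leaving out the 10 most abundant genes and leaving out each library. The fit was tested on simulated data, in which 200 well-counted genes were changed by 2 on the log2 scale, as many upward as downward. That test does not cover the difference in TMM factors between the groups or genes with few counts.

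The genes, the lists around them and the tests were chosen with earlier results of these data known. All 10 genes are named. From the lists, the text names by rule those past both thresholds with a mean of at least 50 counts (at most the 8 with the largest change per list) and a fixed few regardless of their values; others are named as the lowest, the highest or the only ones of their kind, after their values were seen. The values of 1 gene of the lists are not reported here.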

Additional observations from a re-analysis of the deposited data

How the results depend on the processing

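The 6 ratios between genes kept their direction when each library was left out, and 8 of the 10 genes kept their direction and side of the threshold under every alternative that could be fitted. The exceptions were Tgfbr2, which turned to -0.053 with library size alone, and Smad3, which fell short of the threshold of 1 with library size alone (0.62), upper quartile scaling (0.88) and no filter on low counts (0.995). Smad6 could not be fitted with a minimum of 10 counts in every library, since its control libraries held 5, 10 and 5, and that filter lowered the number of genes past both thresholds from 3277 to 2168 because fewer genes were tested. Library size alone changed the split from 1653 higher and 1624 lower to 1213 and 2964. With the replicate block, which pairs libraries by batch, 7 of the 10 genes and 3276 genes overall passed, and no call on the 10 genes changed. Depth limits Smad6, Inhba and Id1 most, whose control libraries held at most 29 counts.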
